A study of Mus musculus with 16 samples.

Results

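The nuclear genes of oxidative phosphorylation were followed through chromatin-associated RNA of mouse embryonic stem cells that ectopically expressed a histone demethylase, either whole or without an intrinsically disordered region (IDR). Members were the protein-coding rows of the gene count table whose symbol begins with Nduf and a subunit letter and digit, Uqcr, Sdha to Sdhd, Cox4 to Cox8, or Atp5. The rule matched 97 rows, of which 12 were not annotated as protein-coding and were left out. The remaining 85 of 56941 genes comprised 35 of complex I, 4 of complex II, 8 of complex III, 20 of complex IV and 18 of complex V, and the 13 mRNAs encoded by mitochondrial DNA were set beside them. Ndufa4 and its relative Ndufa4l2 were placed with complex IV, and Atp5s, whose product is also known as a coupling factor, with complex V.

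The cells were E14TG2a, an established mouse embryonic stem cell line, grown in serum with leukaemia inhibitory factor at 1000 U/ml, the MEK inhibitor PD0325901 at 1 µM and the GSK3 inhibitor CHIR99021 at 3 µM. There were 8 groups of 2 libraries, 16 in all: full-length (FL) KDM4A, KDM4B, KDM6A and KDM6B, and the same 4 proteins with an IDR deleted (del-IDR in the genotype labels, del-cIDR in the sample titles). KDM4A and KDM4B remove methyl groups from histone H3 lysine 9 and lysine 36, and KDM6A (UTX) and KDM6B (JMJD3) from histone H3 lysine 27. Every group carried a construct, so no group showed the level without one. Neither the species nor the promoter of the constructs, nor the residues removed, nor what the c in del-cIDR stands for, were given in the sources used here. Libraries were made from the chromatin fraction after depletion of ribosomal RNA, and nothing in the labels ties the 2 libraries of each group to different cultures. The p-values therefore measure the spread between these libraries only, which may be technical.

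Oxidative phosphorylation passes electrons from NADH (complex I) and succinate (complex II) through complex III and cytochrome c to oxygen at complex IV, and the proton gradient so made drives ATP synthesis at complex V. The subunits come from nuclear and mitochondrial genes, except those of complex II, which are all nuclear. Nuclear subunit mRNAs are mostly short, abundant and translated in the cytoplasm, so RNA in a chromatin fraction can hold transcripts being made, transcripts kept in the nucleus and transcripts carried over from the cytoplasm. Mitochondrial mRNAs are made inside mitochondria, away from nuclear chromatin. Pluripotent cells in culture draw much of their ATP from glycolysis.

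Gene reads per library ran from 32739117 to 54890756, with each read of a pair counted. Levels are given as CPM, read counts scaled to a common library total, with library totals adjusted by the trimmed mean of M values (TMM), which sets the middle of the gene distribution equal between libraries, so each difference below is relative to the typical gene. Kdm6a was the construct gene that stood clear of the other groups, at 415 to 441 CPM in the 4 KDM6A libraries and 95.7 to 156 CPM elsewhere. Kdm4a (205 to 300 CPM in its own groups, 165 to 272 elsewhere), Kdm4b (85.4 to 103 and 74.9 to 103) and Kdm6b (78.0 to 96.3 and 69.1 to 81.4) overlapped the other groups, so these reads did not check those labels. Stem cell markers were present throughout, with a summed level of 2104 to 3047 CPM over 12 genes. Tests used edgeR's quasi-likelihood test in 1 fit of the 8 groups, with Benjamini-Hochberg adjustment over 31057 genes and a threshold of 0.05. Of the 85 members, 83 passed the filter on low counts.

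Within the chromatin fraction the members differed widely in abundance once levels were divided by exonic length. The highest was Atp5a1, the alpha subunit in the catalytic head of ATP synthase, at 69.3 CPM per kb averaged over 16 libraries. Atp5b, its beta partner, stood at 65.0 CPM per kb. Cox8a, a small subunit of cytochrome c oxidase, led complex IV at 56.2 CPM per kb. Sdha, the flavoprotein of succinate dehydrogenase, led complex II at 28.7 CPM per kb, Uqcrb led complex III at 28.4 CPM per kb, and Ndufa13 led complex I at 27.5 CPM per kb. At the low end were Ndufb8 in complex I (2.14 CPM per kb), Sdhc in complex II (3.34), Uqcrc2 in complex III (8.89), Atp5g1 in complex V (2.98) and, of the tested members, Cox6a2 in complex IV (0.198), again as levels per kb.

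Complex IV is the complex whose subunits have tissue-specific forms, and the forms of differentiated tissues were mostly the scarce ones. Cox6a2, the heart and muscle form, averaged 0.135 CPM over the 16 libraries, while its ubiquitous partner Cox6a1 averaged 24.8 CPM. Cox7b2 averaged 0.404 CPM beside 55.3 CPM for Cox7b, and Cox8c averaged 0.0590 CPM beside 34.8 CPM for Cox8a. Cox8c did not pass the filter on low counts. The heart and muscle form Cox7a1 was not scarce, with 8.39 CPM beside 9.76 CPM for Cox7a2, and stood above it per kb of exon (15.7 and 10.3 CPM per kb). Nor was the testis-enriched Cox6b2, with 21.5 CPM beside 15.9 CPM for Cox6b1. Per kb of exon the order of that pair turned, at 19.4 CPM per kb for Cox6b2 and 22.4 CPM per kb for Cox6b1. A second gene entry with the symbol Atp5o had 0 reads in every library, which allows at most 0.0547 CPM in the deepest library and 0.0916 CPM in the shallowest (3 reads, counting error only). The other Atp5o entry averaged 8.13 CPM.

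Relative to the typical gene, RNA of the nuclear subunits in this fraction was higher with full-length KDM6B than with the other full-length proteins. The members summed to 3638 and 3703 CPM in the 2 full-length KDM6B libraries. They summed to 2135 and 2093 CPM with full-length KDM4A, 1671 and 1666 CPM with KDM4B, and 1762 and 1729 CPM with KDM6A. No library of another full-length group came near the KDM6B libraries, and the mean of the KDM6B group was 1.74 times that of KDM4A, 2.20 times that of KDM4B and 2.10 times that of KDM6A. These sums are a description, with no test.

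**Figure D1:**
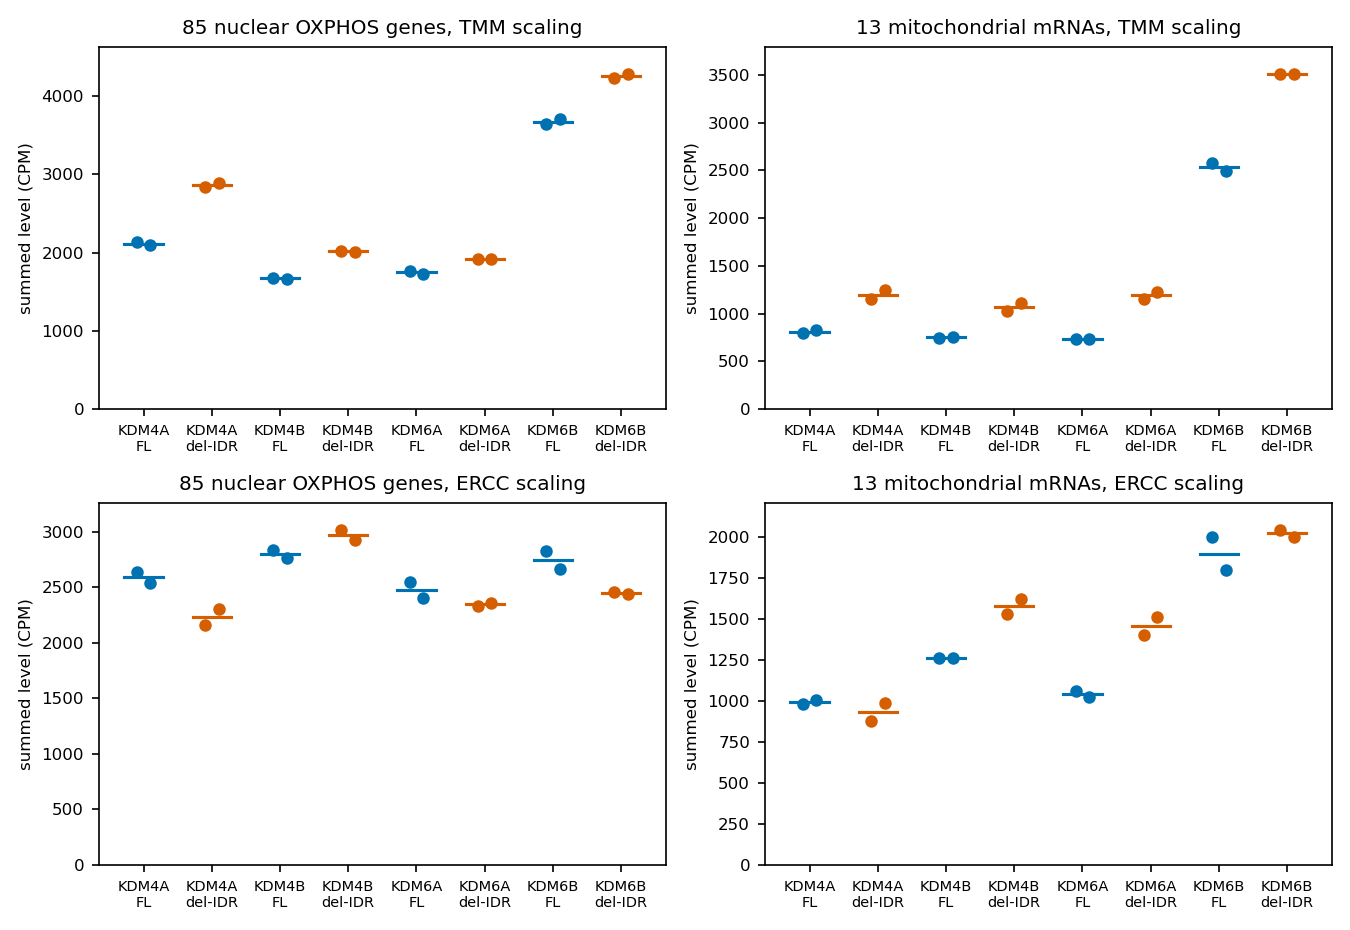
Summed CPM of the 85 nuclear OXPHOS genes (left) and the 13 mitochondrial mRNAs (right) in the 8 groups, scaled by TMM (top) and by the ERCC control reads (bottom). Points are single libraries, bars the mean of 2, blue is full-length and orange IDR-deleted. With TMM all 4 IDR-deleted groups sit above their full-length group, and under the ERCC scaling the nuclear sum stays above it for KDM4B alone.

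The 4 full-length groups differed for 77 of the 83 members tested, where 61.4% of all genes tested did. The 6 that did not pass were Ndufb8, Cox6a2, Cox6b2, Cox7a1, Cox7b2 and Ndufa4l2, 5 of them the tissue-specific or alternative form of a complex IV subunit. Pairwise differences between full-length groups were added after the levels had been seen. Full-length KDM6B was above KDM4A for 73 members, where 23.6% of all genes were, with a median log2 difference of 0.84 over the members and -0.05 over all genes. It was above KDM4B for 71 members (28.1% of all genes, median 1.19 over the members) and above KDM6A for 73 members (25.0% of all genes, median 1.10). Among protein-coding genes alone, the class all members belong to, 37.4%, 42.6% and 40.1% were higher, with medians of 0.11, 0.16 and 0.14. These 3 comparisons share the KDM6B libraries and are not independent of one another. Scaled to the ERCC control RNAs in the libraries (below), the sums of full-length KDM6B were 1.06, 0.98 and 1.11 times those of KDM4A, KDM4B and KDM6A. On that scale 34 members were higher and 17 lower than with KDM4A, 32 and 26 than with KDM4B, and 38 and 22 than with KDM6A, while the median of all genes moved to -0.76, -1.22 and -0.999. The excess over the other full-length groups is thus relative to the typical gene.

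Cox8a showed the largest such gap among members above 1 CPM. It measured 57.5 and 71.7 CPM with full-length KDM6B, 20.7 and 21.4 CPM with KDM4A, 10.2 and 10.3 CPM with KDM4B, and 13.96 and 13.6 CPM with KDM6A. No KDM6B library overlapped another group, and the log2 difference was 1.62 from KDM4A (adjusted p = 3.5e-20), 2.66 from KDM4B (adjusted p = 1.6e-26) and 2.23 from KDM6A (adjusted p = 3.7e-24). Ndufb2, a small accessory subunit of complex I, went the other way, with 10.0 and 10.4 CPM for KDM6B and 15.9 and 18.3 CPM for KDM4B (log2 difference -0.74, adjusted p = 3.0e-07). Ndufs1, a large iron-sulphur subunit of complex I, lay in a narrow range over the full-length groups, between 77.9 and 95.7 CPM. It was still among the members that passed the test of the 4 full-length groups.

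Other transcripts moved with that gap, and their part in it was not tested. The 85 cytosolic ribosomal protein genes summed to 2.04, 2.75 and 2.54 times as much in full-length KDM6B as in KDM4A, KDM4B and KDM6A, and 79, 79 and 80 of the 83 tested were higher. Trophectoderm markers summed to 76.8 to 81.0 CPM over 9 genes with full-length KDM6B and to 20.3 to 31.0 CPM with the others; the most abundant was Tfap2c, and Hand1 and Cdx2 stayed under 1 CPM on average. Primitive endoderm markers summed to 1119 to 1133 CPM over 12 genes against 647 to 750 CPM, led by Lama1. Long noncoding RNAs retained on chromatin went the other way: of 19 listed, 1 was higher and 13 lower in full-length KDM6B than in KDM4A, 1 and 14 than in KDM4B, and 3 and 13 than in KDM6A, with sums 0.886, 0.876 and 0.807 times theirs. Fewer cells of a type and less RNA per cell cannot be told apart in such bulk libraries.

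**Figure D2:**
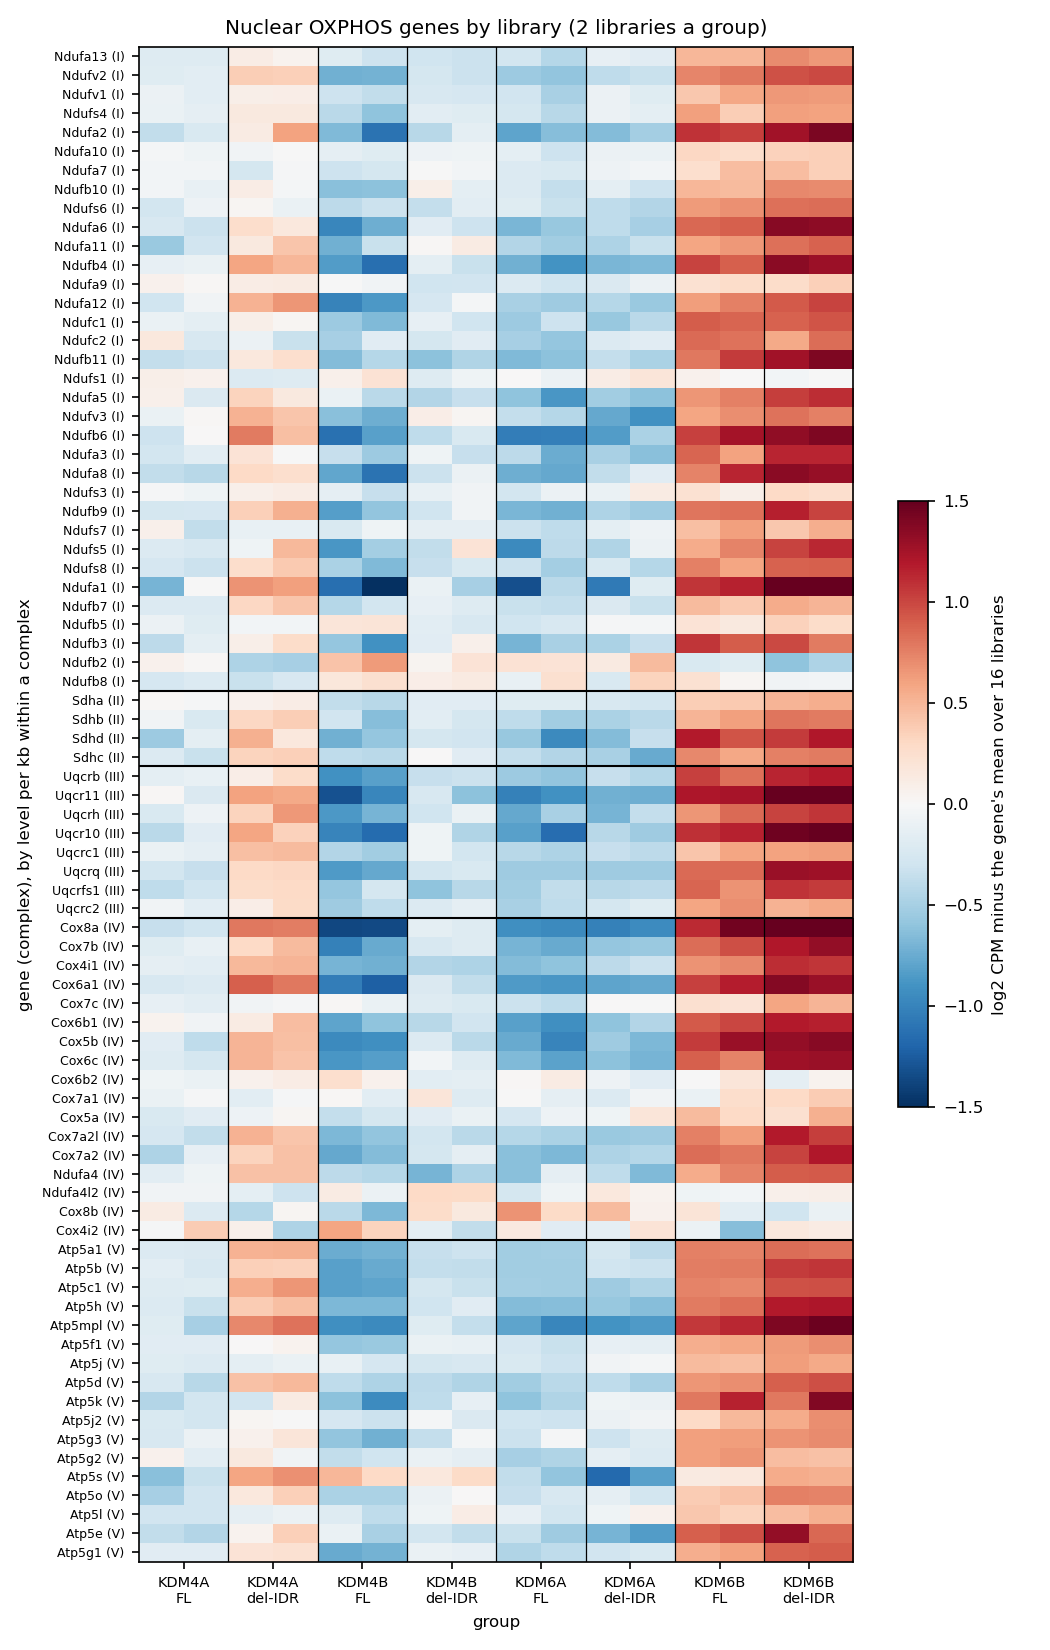
Level of 80 members with a mean of at least 1 CPM in the 16 libraries, as log2 CPM minus the member's mean, ordered by complex and by level per kb. Each column is 1 library, and red is above and blue below the member's mean. The 4 KDM6B columns at the right are red for most rows, while Ndufb2, Ndufb8, Ndufs1, Cox6b2, Ndufa4l2, Cox8b and Cox4i2 are pale or blue there.

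Deleting the IDR was then compared with the full-length protein for each demethylase. All 4 deletions shifted the balance of the members upward relative to the typical gene, most for KDM4A and least for KDM6A. The direction relative to the ERCC controls was different. ERCC control RNAs, which the labels do not mention, supplied 0.582% to 1.55% of gene reads and a larger share in each IDR-deleted group than in its full-length partner. Scaling to them lowered the median log2 change of all genes from -0.05 to -0.70 for KDM4A, from 0.01 to -0.18 for KDM4B, from 0.00 to -0.21 for KDM6A and from 0.00 to -0.38 for KDM6B. The members' median then stood 0.50, 0.32, 0.15 and 0.23 above that of all genes, against 0.50, 0.32, 0.16 and 0.23 under TMM. The statements below on rises thus hold relative to the typical gene, and relative to the controls only where this is stated. Of all genes called, the share that rose went from 48.7% to 7.61%, 51.5% to 25.1%, 49.0% to 5.84% and 47.9% to 4.74%. With TMM computed over nuclear protein-coding genes only, it was 37.6%, 45.4%, 51.8% and 35.1%. Among protein-coding genes alone, with TMM, 38.0% rose and 24.1% fell for KDM4A, 27.2% and 20.7% for KDM4B, 12.2% and 13.5% for KDM6A, and 15.3% and 9.98% for KDM6B, with median log2 changes of 0.12, 0.05, -0.01 and 0.04. How much control RNA was added, and to what, was not given in the sources used here.

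For KDM4A, 53 members rose and 2 fell on deletion, where 24.6% of all genes rose and 25.9% fell. The median log2 change was 0.45 over the members and -0.05 over all genes. The members summed to 2840 and 2894 CPM without the IDR and to 2135 and 2093 CPM with it, a ratio of 1.36 with no overlap. Relative to the ERCC controls 4 members rose and 38 fell.

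Complex III moved as a whole, with all 8 members up. Uqcr10, a small subunit of the cytochrome bc1 complex, went from 7.10 and 8.33 CPM to 14.1 and 11.9 CPM (log2 change 0.76 ± 0.12 (SE), adjusted p = 2.6e-06). In complex II, 3 of 4 rose. Sdhd, one of the membrane anchors of succinate dehydrogenase, measured 6.19 and 8.19 CPM with the full-length protein and 13.1 and 10.1 CPM without the IDR (0.69 ± 0.15, adjusted p = 3.0e-04), while Sdha gave 117 and 114 CPM against 121 and 125 CPM and did not pass (adjusted p = 0.079).

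The largest rises of single members were in complexes IV and V, where 10 of 19 and 13 of 17 tested members rose and none fell. Complex IV did not lead as a whole, as 9 of its 19 did not pass. Its median log2 change was 0.30, beside 0.31, 0.55, 0.62 and 0.55 in complexes I, II, III and V. Where a count of falls by complex is 0 in these comparisons, at most 1 member fell at an unadjusted p under 0.05 in edgeR, and 0 were called in DESeq2. Cox8a (ENSMUSG00000035885, GRCm39 chr19:7192518-7194981, minus strand) measured 20.7 and 21.4 CPM with full-length KDM4A and 45.5 and 44.7 CPM with the deletion. Each deleted library held more than both full-length libraries, and the log2 change was 1.10 ± 0.08 (adjusted p = 2.4e-15). Cox6a1 (1.07 ± 0.08) and Atp5mpl, a small membrane subunit of ATP synthase (1.09 ± 0.09), moved by as much. Atp5s (ENSMUSG00000054894, GRCm39 chr12:69771724-69791434, plus strand) went from 5.68 and 6.92 CPM to 13.1 and 14.04 CPM (1.10 ± 0.13, adjusted p = 1.6e-09).

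Complex I was split, with 19 of 35 members up, 2 down and 14 that did not pass. Ndufb6, an accessory subunit of the membrane arm, rose the most of members whose higher group averaged 5 CPM or more, from 3.49 and 4.35 CPM to 7.48 and 5.92 CPM (0.77 ± 0.16, adjusted p = 1.2e-04). Ndufb2 (ENSMUSG00000002416, GRCm39 chr6:39569508-39580316, plus strand) fell from 12.3 and 11.9 CPM to 8.56 and 8.32 CPM, and its groups did not overlap (-0.52 ± 0.12, adjusted p = 2.2e-04). Ndufs1 fell from 87.6 and 86.6 CPM to 71.4 and 72.1 CPM (-0.28 ± 0.05, adjusted p = 3.1e-05). The share of complex I in the summed level of the members accordingly went from 32.4% ± 0.101 (SD, n = 2) to 27.9% ± 0.15, and that of complex V from 35.3% ± 0.239 to 38.7% ± 0.0744.

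For KDM4B, 49 members rose and 8 fell, where 18.6% of all genes rose and 17.6% fell. The median log2 change was 0.32 over the members and 0.01 over all genes. Sums were 2025 and 2010 CPM without the IDR and 1671 and 1666 CPM with it, a ratio of 1.21. Relative to the ERCC controls 29 rose and 13 fell, so KDM4B was the deletion in which more members rose than fell on both scales.

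Cox8a again moved most of the members above 5 CPM, from 10.2 and 10.3 CPM to 23.8 and 23.0 CPM (log2 change 1.19 ± 0.08, adjusted p = 4.5e-15). In complex III, 7 of 8 rose, among them Uqcr10, which went from 4.71 and 4.23 CPM to 8.96 and 6.88 CPM (0.82 ± 0.13, adjusted p = 3.4e-06). Uqcrfs1, the Rieske iron-sulphur protein, gave 7.99 and 9.94 CPM against 7.90 and 8.99 CPM and did not pass (adjusted p = 0.61), although it rose with the KDM4A deletion. In complex V, 11 of 17 rose and none fell, with Atp5mpl at 0.67 ± 0.09 (adjusted p = 8.4e-08). In complex II, 3 of 4 rose. Sdhc, a membrane anchor, measured 7.89 and 7.73 CPM with the full-length protein and 10.3 and 9.13 CPM without the IDR (0.31 ± 0.11, adjusted p = 0.026), and this call was lost on leaving out any library of the group other than the second IDR-deleted one (adjusted p = 0.070 to 0.24).

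Of the 8 members that fell with the KDM4B deletion, 5 belong to complex I. Among these were the accessory subunits Ndufb2, Ndufb5 and Ndufa9 and the core subunit Ndufs1. Ndufb2 went from 15.9 and 18.3 CPM to 12.1 and 13.6 CPM (-0.41 ± 0.11, adjusted p = 0.0025), a call lost without the second full-length or the first IDR-deleted library (adjusted p = 0.10 and 0.066). Ndufb5 went from 25.9 and 26.2 CPM to 20.4 and 19.3 CPM (-0.39 ± 0.08, adjusted p = 8.8e-05). Against them 18 complex I members rose, led, at 5 CPM or more, by Ndufa12, an accessory subunit, from 8.06 and 8.86 CPM to 13.5 and 15.8 CPM (0.79 ± 0.10, adjusted p = 4.7e-08). In complex IV 10 rose and 3 fell, the latter being Cox7c, Cox4i2 and Cox6b2. Cox6b2 went from 25.5 and 22.5 CPM to 19.2 and 19.3 CPM (-0.32 ± 0.09, adjusted p = 0.004), and without the first full-length library its fall of -0.21 had an adjusted p of 0.14.

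For KDM6A, 18 members rose and 2 fell, where 8.30% of all genes rose and 8.65% fell. The median log2 change was 0.16 over the members and 0.00 over all genes, and the sums were 1922 and 1918 CPM without the IDR and 1762 and 1729 CPM with it, a ratio of 1.10. Relative to the ERCC controls none rose (0 also at an unadjusted p under 0.05 in edgeR) and 12 fell. Without the second full-length library 5 members rose, without the first or the second IDR-deleted one 11 and 10, and in a fit of the 4 KDM6A libraries alone 11 did.

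The KDM6A rises were small, and Cox7c, Ndufs1 and Ndufb5, which fell with the KDM4B deletion, were among them. Cox7c, a small subunit of cytochrome c oxidase, went from 31.1 and 29.9 CPM to 39.0 and 38.8 CPM (0.35 ± 0.06, adjusted p = 6.8e-05). In complex III only Uqcr10 passed (0.49 ± 0.13, adjusted p = 0.0074), and not without the second full-length or the first IDR-deleted library (adjusted p = 0.18 and 0.067). Atp5g2, one of 3 genes for the c subunit of the ATP synthase rotor, rose the most in complex V above 5 CPM (0.31 ± 0.10, adjusted p = 0.031), and leaving out any 1 of the 4 KDM6A libraries ended that call (adjusted p = 0.065 to 0.18). No complex II member passed in either direction, with 0 at an unadjusted p under 0.05 and 0 in DESeq2. Of the 2 that fell, Ndufv3 (ENSMUSG00000024038, GRCm39 chr17:31739089-31750305, plus strand) went from 23.1 and 21.95 CPM to 17.3 and 15.7 CPM (-0.45 ± 0.08, adjusted p = 2.3e-05). Atp5s went from 6.75 and 5.80 CPM to 3.89 and 4.97 CPM (-0.50 ± 0.13, adjusted p = 0.0063), a call lost without the first full-length or the first IDR-deleted library (adjusted p = 0.15 and 0.18).

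For KDM6B, 32 members rose and 1 fell, where 9.89% of all genes rose and 10.7% fell. The median log2 change was 0.23 over the members and 0.00 over all genes. Sums were 4234 and 4286 CPM without the IDR and 3638 and 3703 CPM with it, a ratio of 1.16. Relative to the ERCC controls none rose (0 also at an unadjusted p under 0.05 in edgeR) and 28 fell. Leaving out the second IDR-deleted library left 14 risers and leaving out the first full-length one left 18, the first IDR-deleted one 20.

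Complexes III, IV and V carried most of the KDM6B rises, with 5 of 8, 7 of 19 and 9 of 17 members. Cox6c, a small subunit of cytochrome c oxidase, went from 127 and 114 CPM to 165 and 168 CPM (log2 change 0.47 ± 0.06, adjusted p = 6.8e-08). Uqcrq, a small subunit of complex III, went from 40.2 and 40.4 CPM to 54.9 and 54.1 CPM (0.43 ± 0.07, adjusted p = 1.5e-05), and Atp5h, a subunit of the ATP synthase stalk, from 64.2 and 66.7 CPM to 85.7 and 87.1 CPM (0.40 ± 0.06, adjusted p = 5.4e-06). In complex I 10 of 35 rose, led by Ndufa6 (0.48 ± 0.08, adjusted p = 3.3e-05). Sdha was the complex II member that rose (0.15 ± 0.04, adjusted p = 0.011); without the first full-length or the second IDR-deleted library it did not pass (adjusted p = 0.085 and 0.14). Ndufb2 was the 1 that fell (-0.33 ± 0.11, adjusted p = 0.035), and leaving out any of the 4 libraries ended this call (adjusted p = 0.053 to 0.27).

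**Figure D3:**
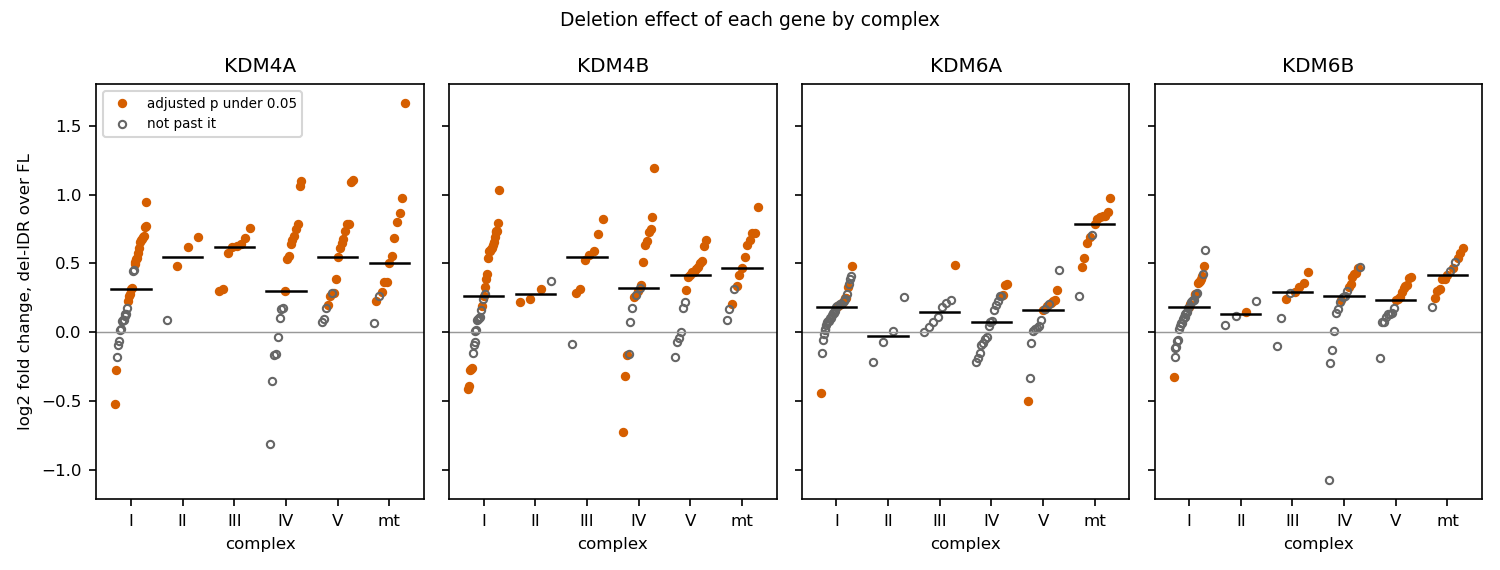
Log2 fold change of each member, IDR-deleted over full-length, in the 4 comparisons, by complex, with the mitochondrial mRNAs (mt) at the right of each panel. Filled points passed an adjusted p of 0.05, open points did not, and the black bar is the median over all tested members of that complex; the point of Cox6a2, at 0.135 CPM on average, is not drawn. In the KDM6A panel the mt points lie above most nuclear members, while in the KDM4A panel all but mt-Atp8, the topmost point at 1.66, share their range.

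Across the 4 comparisons, 5 members rose each time: Ndufa8 and Ndufv2 of complex I, Uqcr10 of complex III, Cox4i1 of complex IV and Atp5b of complex V. Another 22 rose in 3 of the 4, and 15 rose in none. The 15 included Cox4i2, Cox6a2, Cox6b2, Cox7a1, Cox7b2 and Ndufa4l2 in complex IV, and Ndufa9, Ndufa10, Ndufb2, Ndufb8, Ndufc2, Ndufs3, Ndufs6 and Ndufs7 in complex I. Cox5a was the remaining one. Atp5b went from 225 and 212 CPM to 321 and 318 CPM with the KDM4A deletion, from 143 and 148 CPM to 195 and 194 CPM with KDM4B, from 174 and 174 CPM to 203 and 199.9 CPM with KDM6A, and from 425 and 429 CPM to 516 and 528 CPM with KDM6B. No full-length library reached its IDR-deleted partners in these 4 comparisons.

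The size of the change differed among the 4 deletions for 52 of 83 members, where 56.6% of all genes tested differed, so the share of members was close to that of all genes. The strongest difference was at Cox8a (adjusted p = 2.0e-12), with log2 changes of 1.10 for KDM4A, 1.19 for KDM4B, -0.04 for KDM6A and 0.43 for KDM6B. Atp5a1 came next (adjusted p = 2.4e-12). It went from 175 and 173 CPM to 288 and 291 CPM with the KDM4A deletion (0.74 ± 0.04) and from 340 and 337 CPM to 358 and 353 CPM with KDM6B (0.07 ± 0.04). Ndufv3, a subunit of the NADH-binding module, was the third (adjusted p = 1.1e-11). It rose with KDM4A (0.51 ± 0.07) and KDM4B (0.74 ± 0.07), fell with KDM6A (-0.45 ± 0.08), and did not pass with KDM6B (0.14 ± 0.07, adjusted p = 0.18).

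Mitochondrial mRNAs shared the upward shift but not its ranking. Their sums with the full-length proteins were 792 and 829 CPM for KDM4A, 742 and 758 CPM for KDM4B, 734 and 738 CPM for KDM6A, and 2574 and 2491 CPM for KDM6B. Without the IDR they were 1155 and 1242 CPM, 1026 and 1111 CPM, 1152 and 1227 CPM, and 3511 and 3512 CPM, so each deleted group lay above its full-length partner. The ratios were 1.48 for KDM4A, 1.43 for KDM4B, 1.62 for KDM6A and 1.39 for KDM6B. Thus KDM6A had the smallest ratio of the nuclear sum and the largest of the mitochondrial sum. Of the 13 mRNAs, 11, 10, 11 and 10 rose in the same order and none fell (0 also at an unadjusted p under 0.05 and in DESeq2), with median log2 changes of 0.50, 0.46, 0.79 and 0.42. Relative to the ERCC controls 1, 6, 11 and 1 rose and 5, 0, 0 and 0 fell, so the KDM6A rise alone was as frequent on both scales.

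A ratio of the sums within a library does not depend on the scaling. The mitochondrial sum was 41.6% and 42.7% of the nuclear sum with full-length KDM6A and 59.96% and 64.0% without the IDR. It was 37.1% and 39.6% against 40.7% and 42.9% for KDM4A, 44.4% and 45.5% against 50.7% and 55.3% for KDM4B, and 70.8% and 67.3% against 82.9% and 81.9% for KDM6B. No pair of groups overlapped, and the KDM6A step was the largest, from a mean of 42.2% to 62.0%. Full-length KDM6B stood apart here too, with a mitochondrial sum 3.12, 3.38 and 3.44 times that of full-length KDM4A, KDM4B and KDM6A, and all 13 mRNAs higher in each comparison. Scaled to the ERCC controls these ratios were 1.91, 1.51 and 1.82, with 12, 9 and 12 mRNAs higher. Whether mitochondria were carried into the chromatin fraction was not tested.

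**Figure D4:**
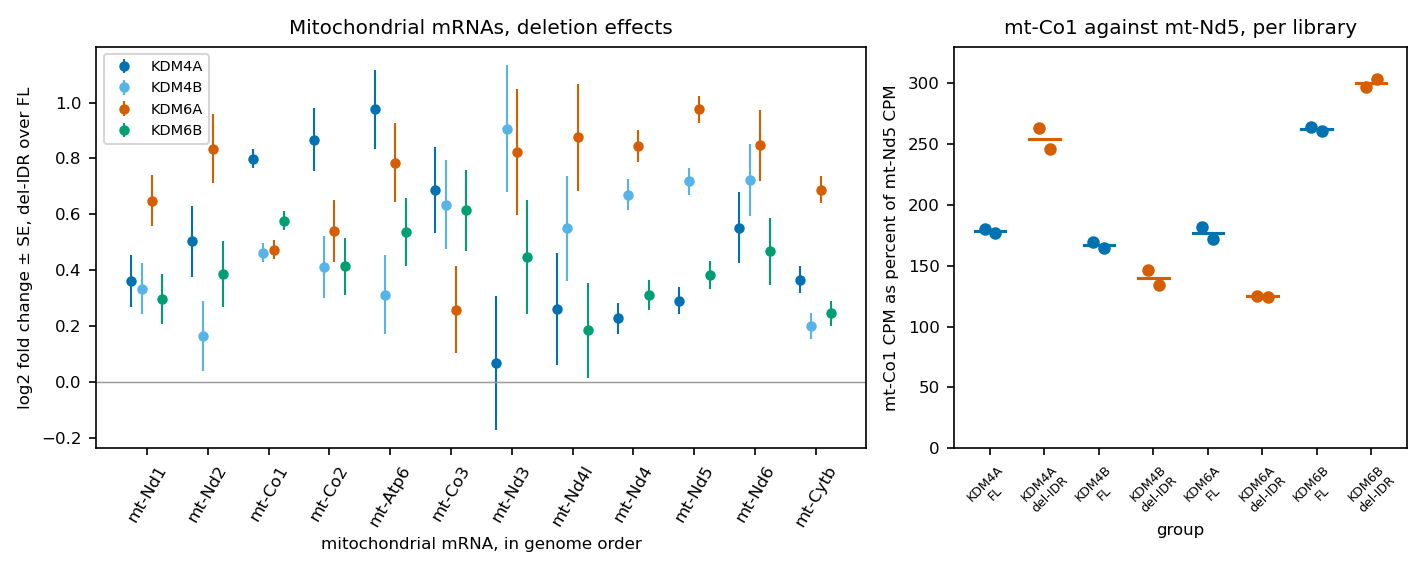
Left, log2 fold change ± SE of 12 mitochondrial mRNAs, IDR-deleted over full-length, for the 4 demethylases; mt-Atp8, at 0.812 CPM on average, is not drawn. Right, mt-Co1 CPM as a percent of mt-Nd5 CPM in each library, full-length in blue and IDR-deleted in orange, with bars for the mean of 2. KDM4A points lie highest at mt-Co1 and low at mt-Nd4 and mt-Nd5, where KDM6A points lie highest.

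The mitochondrial mRNAs did not move as a block. The deletion effects differed among the demethylases for 7 of 13: mt-Nd2, mt-Co1, mt-Co2, mt-Atp6, mt-Nd4, mt-Nd5 and mt-Cytb. Of all genes tested 56.6% differed, so the share of these mRNAs was close to that of all genes. mt-Co1, the catalytic core of complex IV, measured 341 and 351 CPM with full-length KDM4A and 586 and 619 CPM without the IDR (log2 change 0.80 ± 0.03, adjusted p = 1.5e-21). With KDM6A it went from 302 and 290 CPM to 403 and 418 CPM (0.47 ± 0.03, adjusted p = 2.8e-13). mt-Nd5, a proton-pumping subunit of complex I, reversed that order. It went from 189 and 198 CPM to 222 and 251 CPM with KDM4A (0.29 ± 0.05, adjusted p = 1.5e-05) and from 166 and 168 CPM to 321 and 335 CPM with KDM6A (0.98 ± 0.05, adjusted p = 1.2e-13). The mt-Nd5 rise with KDM4A turned to a fall of -0.36 under the ERCC scaling (adjusted p = 1.1e-06).

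The balance of the pair within a library is again free of the scaling. mt-Co1 stood at 181% and 177% of mt-Nd5 with full-length KDM4A and at 263% and 246% without the IDR. The opposite step appeared for KDM6A, from 182% and 172% to 125% and 125%, and for KDM4B, from 170% and 165% to 146% and 135%. KDM6B went from 265% and 261% to 297% and 303%. In all 4 pairs the groups did not overlap. mt-Co2, mt-Co3 and mt-Atp6 had 7.21 to 17.9 CPM on average against 687 CPM for mt-Co1, although they are transcribed together; near-identical nuclear copies of mitochondrial DNA and the mapping quality minimum of 30 could lower such counts, and this was not tested.

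Genes that serve the same complexes were examined from lists that hold no member. The 53 listed assembly factors, chaperones that build the complexes without staying in them, moved in both directions. Of 51 tested, 13 rose and 10 fell with the KDM4A deletion, 9 and 9 with KDM4B, 8 and 1 with KDM6A, and 1 and 4 with KDM6B, with median log2 changes of -0.00, 0.00, 0.10 and 0.01. Of all genes, 24.6% rose and 25.9% fell with KDM4A, and 18.6% and 17.6% with KDM4B. The shares were 8.30% and 8.65% with KDM6A, and 9.89% and 10.7% with KDM6B. The KDM4A rises and both KDM4B counts were near the shares of all genes. Of protein-coding genes alone, 38.0% rose with KDM4A, 27.2% with KDM4B, 12.2% with KDM6A and 15.3% with KDM6B. Except with KDM6A, assembly factors rose less often than that. Cox19, which delivers copper for complex IV, went from a mean of 7.09 to 24.9 CPM with the KDM4A deletion (1.82 ± 0.16, adjusted p = 2.8e-09), and Cox17, the copper chaperone, from 28.1 to 48.3 CPM (0.78 ± 0.07, adjusted p = 5.0e-13). Sdhaf3, an assembly factor of complex II, fell from 21.8 to 12.2 CPM (-0.84 ± 0.10, adjusted p = 5.1e-09) while 3 of 4 complex II subunits rose. With the KDM4B deletion Acad9, a complex I assembly factor, fell from 142 to 57.6 CPM (-1.30 ± 0.05, adjusted p = 9.6e-22).

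Cytochrome c fell in both KDM4 comparisons, and the transcriptional regulators of the subunits were split. Cycs, the carrier between complexes III and IV, fell from 45.8 to 35.3 CPM with the KDM4A deletion (-0.37 ± 0.07, adjusted p = 9.2e-06) and from 47.1 to 28.2 CPM with KDM4B (-0.74 ± 0.07, adjusted p = 1.0e-11), and rose with KDM6B (0.30 ± 0.07, adjusted p = 8.0e-04). Nrf1, a transcription factor that binds promoters of many respiratory genes, fell from 177 to 112 CPM with KDM4A (-0.66 ± 0.04, adjusted p = 2.8e-16), from 195 to 135 CPM with KDM4B (-0.53 ± 0.04, adjusted p = 2.8e-13) and from 116 to 103 CPM with KDM6B (-0.17 ± 0.04, adjusted p = 0.0036). It rose from 183 to 205 CPM with KDM6A (0.16 ± 0.04, adjusted p = 0.0053). Of the 8 nuclear regulators tested, 3 rose and 4 fell with KDM4A, 2 and 5 with KDM4B, 3 and 0 with KDM6A, and 0 and 2 with KDM6B. Among all protein-coding genes 38.0% rose and 24.1% fell, 27.2% and 20.7%, 12.2% and 13.5%, and 15.3% and 9.98% in that order. The regulators' rises with KDM4A and KDM4B were thus near those shares. Gabpa, the DNA-binding part of the GABP factor, rose with KDM4A (0.16, adjusted p = 0.0015) and fell with KDM4B (-0.24, adjusted p = 7.6e-06). Ppargc1b, a coactivator of mitochondrial genes, rose with both (0.28, adjusted p = 0.020, and 0.73, adjusted p = 2.5e-07).

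The machinery that expresses mitochondrial DNA was split as well. Of 24 such genes, 7 rose and 10 fell with the KDM4A deletion, 7 and 6 with KDM4B, 3 and 1 with KDM6A, and 1 and 2 with KDM6B. Ssbp1, which coats single-stranded mitochondrial DNA, fell from 92.7 to 46.0 CPM with KDM4A (-1.01 ± 0.05, adjusted p = 7.7e-19), where Tfam, the packaging and transcription factor, rose from 39.4 to 53.0 CPM (0.43 ± 0.07, adjusted p = 1.1e-06). Mitochondrial ribosomal protein genes, 78 in number, gave 27 rises and 10 falls, 16 and 9, 17 and 0, and 8 and 5 in the order KDM4A, KDM4B, KDM6A and KDM6B. Of all protein-coding genes 38.0% rose and 24.1% fell, 27.2% and 20.7%, 12.2% and 13.5%, and 15.3% and 9.98% in that order. The rises of these ribosomal protein genes with KDM4A, KDM4B and KDM6B did not exceed those shares. Tricarboxylic acid cycle genes gave 13 rises and 1 fall, 9 and 1, 3 and 3, and 10 and 1 of 18. Glycolytic genes gave 14 rises and 0 falls, 8 and 6, 1 and 7, and 12 and 1 of 17. With the KDM6A deletion, then, more glycolytic genes fell than rose while more nuclear OXPHOS genes rose than fell. Mitochondrial stress genes gave 6 and 3, 6 and 0, 1 and 2, and 3 and 0 of 11. Where a count in these and the following lists is 0, up to 3 genes had an unadjusted p under 0.05 in edgeR and up to 1 was called in DESeq2.

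Other transcripts again moved beside the members, and their part in the members' changes was not tested. Cytosolic ribosomal protein genes gave 70 rises and 4 falls, 64 and 0, 25 and 0, and 71 and 0 of 83, with sums 1.46, 1.25, 1.077 and 1.30 times those of the full-length groups. Listed long noncoding RNAs that are retained on chromatin gave 4 rises and 11 falls, 1 and 14, 7 and 6, and 7 and 9 of 19. Their sums were 1.39, 0.877, 0.819 and 1.07 times those of the full-length groups, so for KDM4A the sum and the counts differed in direction. Malat1 alone went from 21856 to 34116 CPM there. Over the 83 members Pearson's r between log2 exonic length and log2 change was -0.14, -0.36, -0.055 and -0.13, and Spearman's rho -0.18, -0.36, -0.077 and -0.31, a description across genes that share libraries. Of the 29 members with 2000 or more exonic bases, 17 rose and 2 fell with KDM4A and 16 rose and 5 fell with KDM4B, beside 12 and 0, and 15 and 1, of the 22 with under 1000. With KDM6A 11 rose and 2 fell of the 29, beside 3 and 0 of the 22, and with KDM6B 8 and 1 beside 7 and 0.

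Some markers of other cell types differed in the same comparisons. As a measure for these counts, 38.0% of all protein-coding genes rose and 24.1% fell with KDM4A, and 27.2% and 20.7% with KDM4B. With KDM6A 12.2% rose and 13.5% fell, and with KDM6B 15.3% and 9.98%. Trophectoderm markers rose for 7 of 8 tested with the KDM4A deletion and 6 of 8 with KDM4B, their sums going from 29.2 to 31.0 CPM up to 68.2 to 69.5 CPM, and from 20.3 to 21.6 CPM up to 33.2 to 34.4 CPM. With KDM6A 1 rose, and with KDM6B 1 fell, both near the shares of protein-coding genes. Primitive endoderm markers gave 7 rises and 2 falls, 5 and 1, 3 and 0, and 0 and 3 of 11, with Ttr, Foxa2, Sox7 and Afp under 1 CPM on average. Fibroblast markers gave 3 and 0, 0 and 1, 1 and 1, and 3 and 0 of 5, with 7 of the 11 listed genes under 1 CPM. Neural markers gave 5 and 1, 0 and 5, 2 and 2, and 5 and 0 of 9. Stem cell markers gave 4 and 7, 2 and 8, 5 and 2, and 4 and 1 of 12.

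Counting without regard to strand limits some members. Of the 85, 39 have a span, introns included, that overlaps at least 1 other annotated gene, and 31 overlap a gene on the opposite strand. Reads on exons of both genes were left out of the counts. Other reads of a partner that lie on exons of the member alone cannot be told apart from its own. Among the 45 tested members that overlap no gene, 33, 31, 6 and 18 rose in the order KDM4A, KDM4B, KDM6A and KDM6B. Of all protein-coding genes 38.0%, 27.2%, 12.2% and 15.3% rose in that order, so the KDM6A count of 6 of 45 was near that share. Ndufb2 lies in part over Braf, which did not pass with KDM4A (-0.05, adjusted p = 0.37) and fell with KDM4B (-0.39, adjusted p = 4.4e-10). Ndufs1 lies over Eef1b2, which rose with both (0.73 and 0.22), and over the noncoding Ino80dos, which fell with both (-1.19 and -0.48). Ndufb5 lies over Mrpl47, which did not pass with KDM4B (0.04, adjusted p = 0.79). Processed pseudogenes of several members also exist, and their counts are uncertain where copies are near-identical.

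Promoters were read for what the members share beyond the rule. RefSeq windows on GRCm38.p6, from 250 bases before to 50 after each start, were at hand for 66 of 84 member symbols. Sdhc, Ndufs1, Cox4i2, Atp5f1, Cox6a2, Uqcrc2, Ndufa4l2, Cox4i1, Uqcrq, Uqcrb, Atp5mpl, Atp5s, Cox8c, Ndufb9, Cox6c, Ndufa2 and Atp5a1 were among the symbols not matched. Both strands were searched for 4 exact words: GCGCATGCG for NRF1, CCGGAAGT for ETS factors such as GABP, AAGATGGCG for YY1 and TGACGTCA for the cyclic AMP response element. At least 1 stood in the promoters of 22 of 66 members (33.3%), against 9.18% of 27025 genes. Those genes were not filtered by type, while all members are protein-coding, so the 2 sets are not alike. The NRF1 word was in 12.1% of members and 1.95% of genes, the YY1 word in 10.6% and 1.64%, the ETS word in 7.58% and 4.31%, and the response element in 6.06% and 2.03%. A match is a description of letters and not of binding.

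The promoters below show each word beside members with different changes, 5′ to 3′ toward the start and ending on the base before it, with the matched words in capitals. Ndufa8 rose in all 4 comparisons, Cox6a1, Uqcr11 and Atp5h in 3, Atp5j in that of KDM6A, and Ndufb2 fell in 3.
Ndufa8, chr2:36049339-36049418, minus strand, NRF1 word on the other strand: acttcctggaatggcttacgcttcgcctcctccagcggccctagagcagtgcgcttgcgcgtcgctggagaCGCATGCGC
Cox6a1, chr5:115348959-115349130, minus strand, NRF1 word on both strands, overlapping: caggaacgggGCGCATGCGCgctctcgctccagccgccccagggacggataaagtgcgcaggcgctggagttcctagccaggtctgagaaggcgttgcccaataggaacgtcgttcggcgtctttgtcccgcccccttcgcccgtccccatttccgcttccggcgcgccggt
Uqcr11, chr10:80406822-80406901, minus strand, ETS word: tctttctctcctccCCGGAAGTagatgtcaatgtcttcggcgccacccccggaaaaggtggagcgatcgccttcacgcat
Atp5h, chr11:115419920-115419999, minus strand, ETS word on the other strand: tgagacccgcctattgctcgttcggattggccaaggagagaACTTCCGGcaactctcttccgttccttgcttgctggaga
Atp5j, chr16:84834977-84835074, minus strand, YY1 word: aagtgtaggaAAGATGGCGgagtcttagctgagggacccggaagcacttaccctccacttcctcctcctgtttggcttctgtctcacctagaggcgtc
Ndufb2, chr6:39592485-39592564, plus strand, cyclic AMP response element: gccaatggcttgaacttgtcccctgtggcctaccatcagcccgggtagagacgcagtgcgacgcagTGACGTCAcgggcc
Uqcr11 also holds the NRF1 word outside the stretch shown. In Ndufa8 the word shown begins 9 bases before the start, in Ndufb2 14, in Atp5h 39, in Uqcr11 66, in Atp5j 88 and in Cox6a1 162. Members with the NRF1 word did not share 1 pattern: Ndufa8 and Cox6a1 are above, while Atp5g2, which also holds it, passed with KDM6A only.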

How the data were processed

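The deposited table holds counts of reads per gene for the 16 libraries. Per the file headers the authors counted exons with featureCounts 2.0.3, with each read of a pair counted on its own, strand ignored, reads on several genes left out and a mapping quality minimum of 30. GRCm39, HISAT2, SAMtools and Picard are named in the submitters' processing notes, with no versions. The deposited table of repeat counts was not used.

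Gene symbols and types were taken from GENCODE M21 by Ensembl identifier (52000 of 56941 genes matched), and promoters from RefSeq on GRCm38.p6. Read totals left out 92 ERCC rows and 2 further control rows, the latter with 0 reads. Counts were filtered with edgeR 4.0.16 (minimum count 10), scaled by TMM and fitted with its quasi-likelihood model for 8 group means with 8 residual degrees of freedom; Benjamini-Hochberg adjustment ran over 31057 genes; SEs were derived from the F statistic and the fold change. Differences among the 4 deletion effects, and among the 4 full-length groups, were tested on 3 degrees of freedom. R was 4.3.3. The fit was tested on simulated data.

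Named genes were, per comparison and complex, the member with the largest rise and fall past the threshold among members whose higher group averaged 5 CPM or more; per complex the highest and lowest per kb; members under 1 CPM; the mitochondrial mRNAs; the nuclear regulators; the gene of smallest p in other lists; and the 3 members with the smallest p for differing deletion effects. Further genes of the lists, members over which another gene lies, and a few members set against these were chosen after their values were seen. Members and lists were chosen with earlier results of these data known. Names caught by the ribosomal protein pattern that are not ribosomal proteins, such as the Rps6k kinases, were left out by name. Alternatives were DESeq2 1.42.0, other scalings, no filter, 4-library fits, a replicate block and leaving out each library. Libraries held 32739117 to 54890756 gene reads, and errors given with values cover the spread between libraries. Values of 1 complex I gene are not reported here, though the counts and sums include it.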

Additional observations from a re-analysis of the deposited data

Results flagged for a closer look

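Deletion effects that differ between demethylases were tested with edgeR's quasi-likelihood test on 3 degrees of freedom and Benjamini-Hochberg adjustment over all genes. They differed for 52 of 83 nuclear OXPHOS genes tested and for 7 of 13 mitochondrially encoded mRNAs. Of all genes tested 56.6% differed, so both shares were close to that of all genes. The smallest adjusted p among members was 2e-12 at Cox8a, which rose with KDM4A, KDM4B and KDM6B and measured 13.96 and 13.6 CPM against 13.05 and 13.8 CPM with KDM6A. It was 2.4e-12 at Atp5a1 and 1.1e-11 at Ndufv3. Among mitochondrial mRNAs it was 6.8e-09 at mt-Nd5, with a log2 change of 0.98 for KDM6A and 0.29 for KDM4A, and 2e-07 at mt-Co1, with 0.47 and 0.80. No group has enough libraries for a check of single outlying libraries.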

How the results depend on the processing

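Scaling to the ERCC controls changed most. Nuclear OXPHOS genes that rose and fell became 4 and 38 for KDM4A, 29 and 13 for KDM4B, 0 and 12 for KDM6A and 0 and 28 for KDM6B, and mitochondrial mRNAs 1 and 5, 6 and 0, 11 and 0, and 1 and 0. All genes called for KDM6B went to 13954. Members above the other full-length groups in full-length KDM6B became 34, 32 and 38. Medians of the nuclear genes turned to -0.19 for KDM4A, -0.061 for KDM6A and -0.15 for KDM6B, and that of mitochondrial mRNAs to -0.15 for KDM4A. Sdha with KDM6B turned to -0.23 and mt-Nd5 with KDM4A to -0.36. How the controls were added is not stated, and the cause was not tested.

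The log2 ratio of summed levels, deleted over full-length, moved under that scaling to -0.21, 0.086, -0.078 and -0.17 for nuclear genes and to -0.087, 0.32, 0.48 and 0.090 for mitochondrial mRNAs, in the order KDM4A, KDM4B, KDM6A, KDM6B. With TMM over nuclear protein-coding genes the nuclear ratios were 0.30 for KDM4A, 0.23 for KDM4B and 0.16 for KDM6B, and the mitochondrial ones 0.43 for KDM4A and 0.42 for KDM6B. Median-ratio scaling gave 0.25 for KDM4B. A fit of only its 4 libraries gave 11 rises for KDM6A, where fewer degrees of freedom remain, and DESeq2 gave 0 falls for KDM6B.

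Leaving out 1 library gave 49 to 54 rises for KDM4A, 38 to 51 for KDM4B, 5 to 19 for KDM6A and 14 to 34 for KDM6B. Falls ran from 4 to 8 for KDM4B, 1 to 2 for KDM6A and 0 to 1 for KDM6B. Mitochondrial rises for KDM6B ran from 6 to 10. All genes called ran from 3490 to 5376 for KDM6A and from 4078 to 6562 for KDM6B. Of 33 named effects, 2 reversed and 13 lost their call with ERCC scaling, 2 lost it with DESeq2, 2 with TMM over nuclear protein-coding genes and 1 in the 4-library fit, as did 20 of the leave-one-out values.

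Same-numbered libraries of different groups shared a small part of their deviations. The correlations ran from -0.00 to 0.17, with a median of 0.10 and 15 of 28 pairs of groups over 0.1. Whether the replicate numbers mark a common batch was not tested. A replicate block gave 54, 50, 21 and 38 rises, 59 members whose deletion effects differ and 78 that differ among full-length groups, and the 33 named effects kept their direction and call.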
